A study of Rattus norvegicus with 12 samples.

Results

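The lymphocyte compartment of the infarcted rat heart was described with 10 marker genes, namely the T cell receptor chains Cd3d, Cd3e and Cd3g, the T and natural killer (NK) cell gene Cd2, the CD8 chain Cd8a, the cytotoxic granule genes Nkg7, Gzmb and Prf1, and the B cell genes Cd79b and Ms4a1. They were picked by name from the table of 34599 genes, all 10 were found there, and all 10 were among the 15101 genes that passed the filter on low counts. Bulk RNA-seq was available for 12 male Sprague-Dawley rats, 4 per group, from the infarct region of the left ventricle harvested on day 1. Sham rats had the chest opened without ligation of the left anterior descending (LAD) coronary artery, and MI rats had the LAD ligated and were left untreated. The iCarP+/Light+ rats had the same ligation and then received an injection of living Chlorella, a single-celled green alga, into the infarct. A photonic patch (iCarP) with an embedded tapered optical fibre was fixed over it to the epicardium with an adhesive and illuminated. Alga, patch, adhesive and light were given together, and RNA-seq of rats with the patch but no light was not analysed here, so that the parts of the treatment cannot be told apart. No batch is named in the labels, so any batch running along with the groups cannot be told apart from the treatment.

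T cells recognise antigen through a receptor that signals by way of the CD3 delta, epsilon and gamma chains, whose genes are used here to mark T cells in general, while CD8 is the co-receptor of the cytotoxic T cell. Cytotoxic T cells and NK cells kill their targets with perforin, which opens the membrane, and with granzymes. B cells carry the antigen receptor chain CD79B and the surface protein CD20 (Ms4a1). In the rat, CD8 alpha is also found on NK cells and on monocytes and macrophages, so that Cd8a alone does not name a T cell. In the first day after ligation, the infarct is a tissue of dying myocytes into which neutrophils and then monocytes arrive.

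Each rat had between 14064414 and 17136958 counts assigned to genes. Mitochondrial genes took 22.8% to 28.9% of the counts in Sham hearts but 8.52% to 11.5% in the MI rats and 7.14% to 14.2% in iCarP+/Light+ hearts. The TMM scaling factors were lowest in Sham (0.784 to 0.856), highest in MI (1.15 to 1.26) and between these in iCarP+/Light+ (0.960 to 1.05). Levels are given as CPM, counts relative to the library size after this scaling. The heart label was borne out by the cardiomyocyte genes, which summed to 39076 to 43887 CPM in Sham hearts, 2487 to 4803 in the MI rats and 1878 to 5787 in iCarP+/Light+ hearts. Across all tested genes, 30.2% were called higher and 33.6% lower in MI than in Sham, 11.6% higher and 2.01% lower in iCarP+/Light+ than in MI, and 33.5% higher and 33.0% lower in iCarP+/Light+ than in Sham. A call was a Benjamini-Hochberg adjusted p below 0.05 in edgeR's quasi-likelihood test. That direction depended on the scaling: genes called higher made up 47.3%, 85.2% and 50.3% of all calls in these 3 comparisons, but 73.5%, 30.7% and 64.7% when the total counts alone were used.

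Of the 10 markers, 5 rose from Sham to MI and none fell, against the 30.2% and 33.6% of all genes. The 5 were Cd3d, Cd3e, Cd3g, Cd2 and Cd8a, whereas no call was made in either direction for the 3 cytotoxic granule genes or the 2 B cell genes. The count of 0 lower markers was the same at an unadjusted p below 0.05 in edgeR, and in DESeq2 and limma-voom. The median log2 fold change of the 10 was 0.89, and that of all tested genes was -0.06. Between MI and iCarP+/Light+, Cd8a and Cd3e fell and no marker rose, against 2.01% lower and 11.6% higher among all genes; 8 of the 10 log2 fold changes were negative, with a median of -0.61 beside 0.01 for all genes. For the count of 0 higher markers, 1 (Cd79b) had an unadjusted p below 0.05 in edgeR, and DESeq2 and limma-voom called 0. With total counts alone, 5 markers (Cd3d, Cd3e, Cd3g, Cd8a and Nkg7) were called lower in this comparison, but so were 18.0% of all genes, and the median of all genes shifted to -0.25. Between Sham and iCarP+/Light+, Cd3g, Cd2, Cd8a and Cd79b rose and Nkg7 fell, beside 33.5% and 33.0% of all genes, with a median of 0.64 beside 0.02. The 3 comparisons share groups (MI rats serve in the first and the second, Sham rats in the first and the third), so they are not independent of one another. In bulk tissue, fewer cells of a type and less RNA of a gene per cell cannot be told apart.

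**Figure D1:**
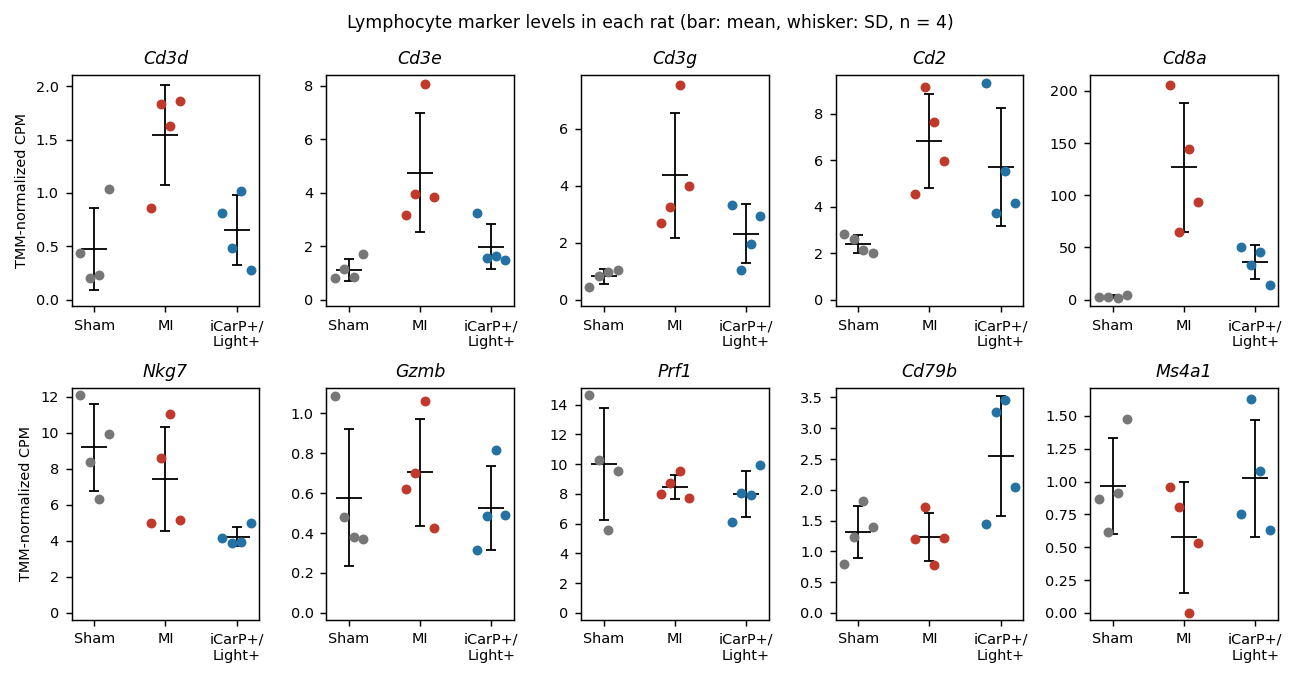
Level of each marker (TMM-normalized CPM, linear axis, scale differing by gene) in each of 4 Sham, 4 MI and 4 iCarP+/Light+ rats, with one point per rat, a bar at the mean and whiskers of 1 SD. The MI points of Cd8a lie between 64.7 and 205 CPM, above all Sham points (1.52 to 4.57) and all iCarP+/Light+ points (14.0 to 50.5), whereas the points of Prf1 and Gzmb overlap in all 3 groups.

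The 3 CD3 genes are neighbours on rat chromosome 8 (rn6, the build of the deposited table). Cd3g lies on the minus strand at chr8:49274960-49280901, Cd3d on the plus strand at chr8:49282460-49287110 and Cd3e on the minus strand at chr8:49297608-49308806, a span of 33847 bases in which Cd3g and Cd3d stand 1558 bases apart. Cd2 lies on the minus strand at chr2:203666637-203680083 and Cd8a on the plus strand at chr4:99239115-99243351. None of the 10 markers overlaps another annotated gene. The 250 bases upstream of the transcription start are shown for these 5 genes because they are the markers that rose from Sham to MI. The sequences are those of RefSeq on the newer build GRCr8, in which the windows are chr8:54185269-54185518 (Cd3d, plus strand), chr8:54211771-54212020 (Cd3e, minus strand), chr8:54183919-54184168 (Cd3g, minus strand), chr2:191412660-191412909 (Cd2, minus strand) and chr4:104923866-104924115 (Cd8a, plus strand). Each is written 5′ to 3′ along the strand of its gene and ends at the base before the start. Capitals mark matches on either strand to 3 motif cores. The core searched for the ETS family of factors, which is active in T cells, was AGGAAG. For the RUNX family, whose members regulate genes of cytotoxic lymphocytes, the letters searched were TGTGGT. For the GATA family, of which GATA3 is needed in the T lineage, the letters searched were AGATAA. No 2 matches overlap in the windows shown.
Cd3d: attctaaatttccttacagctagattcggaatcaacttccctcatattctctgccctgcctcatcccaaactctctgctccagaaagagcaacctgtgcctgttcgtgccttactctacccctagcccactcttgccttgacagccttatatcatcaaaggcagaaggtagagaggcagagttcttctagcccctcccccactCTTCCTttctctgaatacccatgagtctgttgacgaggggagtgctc
Cd3e: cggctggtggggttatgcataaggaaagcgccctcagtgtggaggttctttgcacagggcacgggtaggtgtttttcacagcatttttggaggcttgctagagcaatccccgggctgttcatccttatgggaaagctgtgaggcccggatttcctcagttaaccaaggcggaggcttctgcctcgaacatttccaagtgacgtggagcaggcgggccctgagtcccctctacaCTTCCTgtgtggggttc
Cd3g: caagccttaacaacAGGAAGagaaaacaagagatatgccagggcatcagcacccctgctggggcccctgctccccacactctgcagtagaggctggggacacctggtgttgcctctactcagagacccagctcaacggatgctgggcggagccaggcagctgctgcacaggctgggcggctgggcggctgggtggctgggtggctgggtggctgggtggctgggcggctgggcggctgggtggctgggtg
Cd2: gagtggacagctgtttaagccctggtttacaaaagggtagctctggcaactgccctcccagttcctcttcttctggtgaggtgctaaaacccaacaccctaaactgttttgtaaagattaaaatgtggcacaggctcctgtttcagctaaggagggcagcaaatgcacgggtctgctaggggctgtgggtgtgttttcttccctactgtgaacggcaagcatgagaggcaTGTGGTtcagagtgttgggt
Cd8a: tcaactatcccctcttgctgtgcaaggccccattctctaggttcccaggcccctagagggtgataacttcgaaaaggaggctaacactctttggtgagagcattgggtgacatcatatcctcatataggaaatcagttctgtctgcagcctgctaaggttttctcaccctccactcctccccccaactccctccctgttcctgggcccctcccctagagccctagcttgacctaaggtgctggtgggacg
Each CD3 window holds 1 ETS core, on the strand opposite the gene in Cd3d and Cd3e and on the strand of the gene in Cd3g. The Cd2 window holds 1 RUNX core on the strand of the gene, and the Cd8a window holds none of the 3 cores. Of the 8 markers with an upstream sequence in the table used, 5 held an ETS core, 4 a RUNX core and none a GATA core. Cd79b and Ms4a1 had no entry. Among all 33469 upstream windows of the same length, 29.5% held the ETS core, 14.5% the RUNX core and 10.3% the GATA core. A match describes letters in the window and is not a measured binding site.

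Cd3e, which encodes the epsilon chain of CD3, stood at 0.795, 1.16, 0.835 and 1.70 CPM in Sham rats 1, 2, 3 and 5. It stood at 3.16, 3.94, 8.05 and 3.83 CPM in MI rats 1, 3, 4 and 5, and at 3.26, 1.57, 1.63 and 1.48 CPM in iCarP+/Light+ rats 1, 2, 4 and 5. All MI rats thus lay above all Sham rats, with MI rat 4 highest, while iCarP+/Light+ rat 1 reached into the MI range and the other 3 treated rats lay within the Sham range. The rise from Sham to MI was 4.20-fold (log2 fold change 2.07, SE 0.40, edgeR adjusted p = 4.95e-04). The fall from MI to iCarP+/Light+ was 2.38-fold (log2 fold change -1.25, SE 0.38, edgeR adjusted p = 0.0426). The difference between iCarP+/Light+ and Sham missed the threshold (0.82, SE 0.40, edgeR adjusted p = 0.0875). It was called with total counts alone (1.14, edgeR adjusted p = 0.0214) and without Sham rat 5 (1.08, edgeR adjusted p = 0.0444). The fall was a call at the margin. With each of the 12 rats left out in turn, its log2 fold change ranged from -1.60 to -0.87 and it was called in 3 of 12 fits, being lost without Sham rat 1, 2 or 3, without MI rat 3, 4 or 5, or without iCarP+/Light+ rat 2, 4 or 5 (adjusted p = 0.0504 to 0.133, the highest without MI rat 4). It was also lost when only the 8 rats compared were fitted (-1.29, adjusted p = 0.0639).

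Cd3g, the gamma chain, stood at 0.434, 0.819, 0.987 and 1.03 CPM in the Sham rats, at 2.68, 3.24, 7.55 and 3.99 in the MI rats, and at 3.32, 1.03, 1.96 and 2.95 in the iCarP+/Light+ rats, in the same order of rats. MI rat 4 was again highest, and the treated rats spread from the top of the Sham range into the MI range. Cd3g was 5.30-fold higher in MI than in Sham (log2 fold change 2.40, SE 0.45, edgeR adjusted p = 4.13e-04) and 2.81-fold higher in iCarP+/Light+ than in Sham (1.49, SE 0.45, adjusted p = 0.0105), while the value between iCarP+/Light+ and MI was -0.91 (SE 0.41, adjusted p = 0.180). Cd3d, the delta chain, was the lowest of the 3, with 3 to 14 counts per Sham rat. It stood at 0.434, 0.205, 0.228 and 1.03 CPM in the Sham rats, at 0.862, 1.83, 1.62 and 1.86 in the MI rats and at 0.814, 0.483, 1.02 and 0.281 in the iCarP+/Light+ rats. Sham rat 5 lay above MI rat 1, so these groups overlapped, and treated rat 4 was the only one above the lowest MI rat. The rise of Cd3d from Sham to MI was 3.22-fold (log2 fold change 1.69, SE 0.53, edgeR adjusted p = 0.0134) and was called with each rat left out, and the values of iCarP+/Light+ were -1.24 (SE 0.51, adjusted p = 0.141) against MI and 0.45 (adjusted p = 0.496) against Sham.

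Cd2, which encodes an adhesion molecule of T and NK cells, was high in both groups with a ligation. It stood at 2.82, 2.59, 2.13 and 1.99 CPM in the Sham rats, at 4.55, 9.17, 7.66 and 5.96 in the MI rats and at 9.33, 3.75, 5.56 and 4.15 in the iCarP+/Light+ rats. All MI rats and all treated rats lay above all Sham rats, and the MI and treated ranges overlapped almost wholly. Cd2 was 2.86-fold higher in MI than in Sham (log2 fold change 1.52, SE 0.31, edgeR adjusted p = 9.40e-04) and 2.39-fold higher in iCarP+/Light+ than in Sham (1.25, SE 0.32, adjusted p = 0.00336), and its value between iCarP+/Light+ and MI was -0.26 (adjusted p = 0.648).

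Cd8a showed the widest range of the 10 markers. It had 34, 43, 20 and 62 counts in the Sham rats, 4291, 1200, 2582 and 1752 in the MI rats and 806, 552, 668 and 199 in the iCarP+/Light+ rats, equal to 2.46, 2.94, 1.52 and 4.57 CPM, 205, 64.7, 144 and 93.2 CPM, and 50.5, 33.4, 45.3 and 14.0 CPM. No group overlapped another: every MI heart exceeded every treated heart, and every treated heart exceeded every Sham heart. The rise from Sham to MI was 44.1-fold (log2 fold change 5.46, SE 0.51, edgeR adjusted p = 1.27e-06). In this comparison, 132 of the 15101 tested genes, 0.874%, had a larger log2 fold change. From MI to iCarP+/Light+ the level fell 3.55-fold (log2 fold change -1.83, SE 0.41, edgeR adjusted p = 0.00939), a call made in all 12 fits with a rat left out (-2.05 to -1.49). It remained 12.4-fold higher than in Sham (3.63, SE 0.48, adjusted p = 2.10e-05). The partner chain Cd8b moved with it, at 0.529 ± 0.269 CPM in Sham, 13.9 ± 5.79 in the MI rats and 4.23 ± 0.603 in iCarP+/Light+ (mean ± SD, n = 4). Its log2 fold changes were 4.70 (SE 0.39, adjusted p = 5.33e-07) from Sham to MI and -1.71 (SE 0.32, adjusted p = 0.00268) from MI to iCarP+/Light+, neither with an overlap of the groups.

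**Figure D2:**
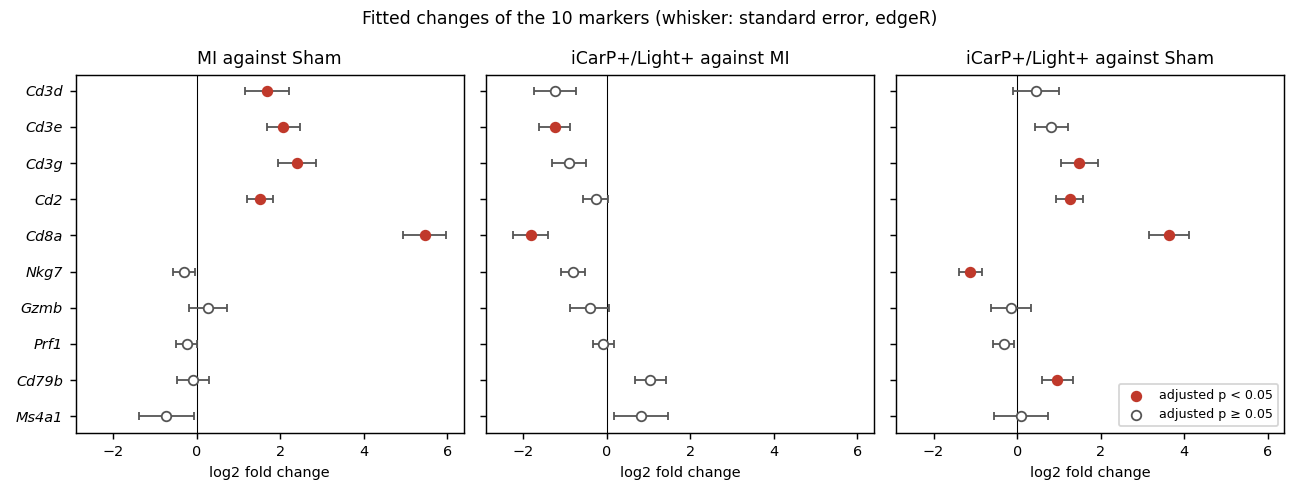
Log2 fold change of each marker (x axis, first-named group over the second) in the 3 comparisons, with whiskers of 1 standard error and filled points at an edgeR adjusted p below 0.05. From Sham to MI the 5 filled points are Cd3d, Cd3e, Cd3g, Cd2 and Cd8a (1.52 to 5.46), and from MI to iCarP+/Light+ the filled points are Cd3e at -1.25 and Cd8a at -1.83.

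The level of Cd8a was also set against that of a CD3 chain. Per kilobase of exons, so that genes can be compared, Cd8a stood at 2.07 CPM in Sham, 91.5 in the MI rats and 25.8 in iCarP+/Light+ hearts, Cd8b at 0.360, 9.46 and 2.88, and Cd3e at 0.748, 3.17 and 1.32. The per-length ratio of Cd8a to Cd3e was 3.34, 2.73, 1.96 and 2.91 in the Sham rats, 70.2, 17.8, 19.4 and 26.3 in the MI rats and 16.7, 22.9, 30.1 and 10.2 in the iCarP+/Light+ rats. The Sham ratios lay below all others, and the MI and treated ratios overlapped. This ratio was chosen after its values had been seen, so it is given as a description and no p-value is printed for it. The ratio of Cd8a to Cd8b overlapped in all 3 groups, at 4.23 to 11.4 in Sham, 8.33 to 11.2 in the MI rats and 3.97 to 11.2 in iCarP+/Light+.

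**Figure D3:**
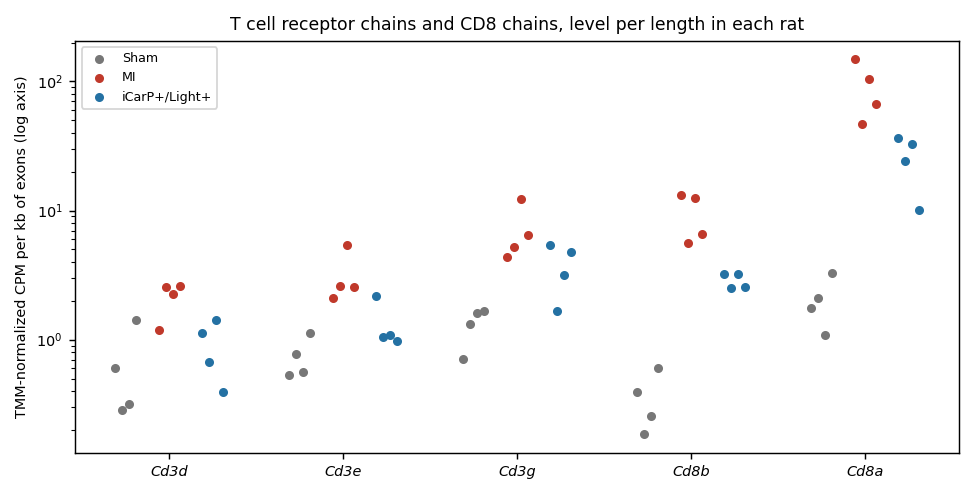
Level per kilobase of exons (TMM-normalized CPM per kb, log axis) of the 3 CD3 chains and the 2 CD8 chains, with one point per rat. In Sham hearts Cd8a (mean 2.07) lies close to the CD3 genes, and in MI hearts (mean 91.5) it lies above all of them.

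Monocyte and macrophage genes moved in these hearts as well. Their 8 listed markers, none of which was at 0 in all rats, summed to 477 to 763 CPM in Sham, 3632 to 6544 in the MI rats and 2798 to 4555 in iCarP+/Light+ hearts, and 5 of the 8 rose from Sham to MI, beside 30.2% of all tested genes. In iCarP+/Light+ hearts 1 of the 8 was higher than in MI, Adgre1 (1.19, SE 0.26, edgeR adjusted p = 0.00753), a surface receptor of macrophages, and 2 fell, the complement genes C1qa (-0.99, SE 0.23, adjusted p = 0.0103) and C1qb (-0.82, SE 0.25, adjusted p = 0.0455), beside 11.6% higher and 2.01% lower among all genes. The call of C1qb was lost without Sham rat 1 or 3, MI rat 1, 3 or 4, or treated rat 2, 4 or 5 (adjusted p = 0.0556 to 0.117). Csf1r, the receptor for the macrophage growth factor CSF1, stood at 117 ± 23.9, 419 ± 76.4 and 283 ± 69.9 CPM, and Lyz2, lysozyme of myeloid cells, at 211 ± 61.9, 4061 ± 1144 and 2964 ± 686 CPM in Sham, MI and iCarP+/Light+, and neither was called between MI and iCarP+/Light+ (-0.56 and -0.45, adjusted p = 0.0787 and 0.292). The per-length ratio of Cd8a to Csf1r was 0.0430 to 0.0861 in Sham, 0.527 to 1.12 in the MI rats and 0.107 to 0.635 in iCarP+/Light+. Cd4, which marks helper T cells and in the rat also macrophages, stood at 39.7 ± 8.17, 24.3 ± 3.69 and 20.3 ± 1.96 CPM. It fell from Sham to MI (-0.71, SE 0.15, adjusted p = 0.00127; -0.13 and not called with total counts alone), and its value from MI to iCarP+/Light+ was -0.26 (adjusted p = 0.331). The part of myeloid cells in the Cd8a signal was not tested.

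None of the 3 granule markers Nkg7, Gzmb and Prf1 was called between Sham and MI by edgeR. Nkg7, a granule membrane protein, stood at 12.1, 8.40, 6.30 and 9.95 CPM in the Sham rats, at 4.98, 8.58, 11.0 and 5.16 in the MI rats and at 4.13, 3.87, 3.93 and 4.99 in the iCarP+/Light+ rats. The Sham and MI ranges overlapped, all treated rats lay below all Sham rats, and treated rat 5 was the only one above the lowest MI rat. Nkg7 was lower in iCarP+/Light+ than in Sham (log2 fold change -1.12, SE 0.28, edgeR adjusted p = 0.00315), and its values were -0.31 (SE 0.27, adjusted p = 0.340) from Sham to MI and -0.81 (SE 0.28, adjusted p = 0.0743) from MI to iCarP+/Light+. The last of these passed the threshold without MI rat 1 (-0.96, adjusted p = 0.0426) or MI rat 5 (-0.95, adjusted p = 0.0463), and in DESeq2 (-0.86, adjusted p = 0.0301).

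Prf1, perforin, stood at 14.7, 10.3, 5.54 and 9.51 CPM in the Sham rats, at 8.0, 8.74, 9.51 and 7.71 in the MI rats and at 6.14, 8.04, 7.93 and 9.92 in the iCarP+/Light+ rats. The Sham rats alone spanned the values of both other groups. Its log2 fold changes were -0.24 (SE 0.25, edgeR adjusted p = 0.415) from Sham to MI, -0.09 (adjusted p = 0.870) from MI to iCarP+/Light+ and -0.32 (adjusted p = 0.266) from Sham to iCarP+/Light+. Only without Sham rat 3 was the last of these called (-0.52, adjusted p = 0.0403). Gzmb, granzyme B, had 5 to 19 counts per rat, and stood at 1.08, 0.478, 0.380 and 0.369 CPM in the Sham rats, at 0.622, 0.701, 1.06 and 0.426 in the MI rats and at 0.313, 0.483, 0.813 and 0.492 in the iCarP+/Light+ rats. The groups overlapped throughout, and with log2 fold changes of 0.27, -0.42 and -0.14 (edgeR adjusted p = 0.621, 0.633 and 0.811) no difference in Gzmb was detectable at this depth. Gzmb belongs to a multigene family of similar sequences, between which the counting could have split reads. Whether this touched its counts was not tested.

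Cd79b, the B cell receptor chain, stood at 0.795, 1.23, 1.82 and 1.40 CPM in the Sham rats, at 1.20, 1.73, 0.783 and 1.22 in the MI rats and at 1.44, 3.26, 3.45 and 2.04 in the iCarP+/Light+ rats. Sham and MI rats shared 1 range, and treated rats 2, 4 and 5 exceeded every rat of both. Cd79b was higher in iCarP+/Light+ than in Sham (log2 fold change 0.96, SE 0.37, edgeR adjusted p = 0.0352), and the values were -0.09 (adjusted p = 0.854) from Sham to MI and 1.04 (SE 0.36, adjusted p = 0.0808) from MI to iCarP+/Light+. The call against Sham was lost without Sham rat 1, 2 or 5 or without treated rat 2 or 4 (0.78 to 0.99, adjusted p = 0.0574 to 0.105), and the value against MI was called without treated rat 1 (1.24, adjusted p = 0.0337). Ms4a1 (CD20) stood at 0.867, 0.614, 0.911 and 1.47 CPM in the Sham rats, at 0.958, 0.809, 0 and 0.532 in the MI rats and at 0.751, 1.63, 1.08 and 0.633 in the iCarP+/Light+ rats. MI rat 4, the rat with the highest Cd3e and Cd3g, had no Ms4a1 count, which at its depth allows up to 0.168 CPM (a floor of 3 counts, counting error only). The 3 groups overlapped, and the log2 fold changes of -0.73, 0.82 and 0.09 had edgeR adjusted p of 0.348, 0.483 and 0.909.

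Set in order of their level per kilobase, the markers changed places between groups. In Sham hearts Nkg7 came first (10.4 CPM per kb), above Prf1 (3.97), Cd8a (2.07) and Cd2 (1.96), and only the step from Nkg7 to Prf1 separated neighbours whose ranges did not overlap. In MI hearts Cd8a (91.5) stood alone at the top, followed by Nkg7 (8.44), Cd3g (7.07) and Cd2 (5.63). In iCarP+/Light+ hearts Cd8a (25.8) again stood alone, followed by Nkg7 (4.80), Cd2 (4.69) and Cd3g (3.75). Gzmb was last in all 3 groups at 0.243 to 0.325 CPM per kb. Below the top gene, every pair of neighbours overlapped in their ranges except Ms4a1 and Gzmb in iCarP+/Light+ hearts.

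The general leukocyte gene rose as well. Ptprc, which encodes CD45 on all leukocytes, stood at 33.0 ± 8.57 CPM in Sham, 278 ± 41.9 in the MI rats and 496 ± 131 in iCarP+/Light+ hearts (log2 fold changes 3.07 and 0.84, both called by edgeR, the second not without treated rat 5, at 0.57 and an adjusted p of 0.0806). Counts per 100 Ptprc counts of the same rat, a measure with no library scaling, are given as a description. For Cd3e they were 2.61 to 4.34 in Sham, 0.974 to 2.67 in the MI rats and 0.217 to 0.859 in iCarP+/Light+, so that the treated rats lay below all MI rats. Values of Cd3d were likewise at 0.711 to 2.27, 0.266 to 0.780 and 0.0413 to 0.232, with all treated rats below all MI rats. For Cd3g they were 1.56 to 3.08, 0.827 to 2.51 and 0.211 to 0.875, and for Cd2 4.38 to 10.1, 1.40 to 3.72 and 0.609 to 2.46. Cd8a was the exception, at 4.74 to 11.0 in Sham, 26.3 to 63.3 in the MI rats and 2.05 to 13.3 in iCarP+/Light+, a treated range that overlapped Sham and lay below MI. Nkg7 went from 19.7 to 43.4 in Sham to 1.54 to 3.66 in the MI rats and 0.733 to 1.09 in iCarP+/Light+, with no overlap between any groups. Prf1 went likewise from 17.3 to 52.7 in Sham to 2.46 to 3.55 and 1.46 to 1.81. The B cell genes lay at 2.86 to 5.69 (Cd79b) and 2.30 to 3.25 (Ms4a1) in Sham, and their MI ranges (0.260 to 0.701 and 0 to 0.328) and treated ranges (0.299 to 0.790 and 0.0929 to 0.335) overlapped.

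**Figure D4:**
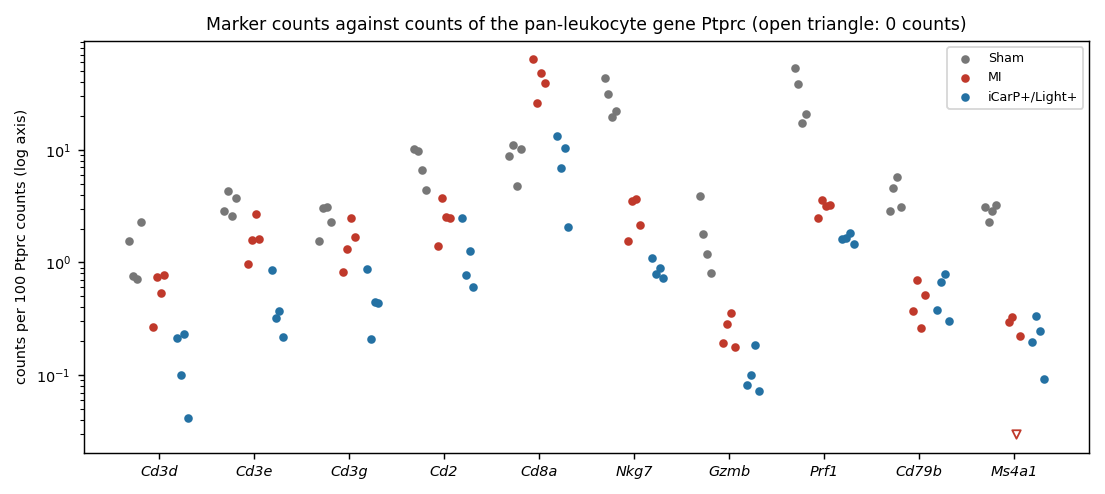
Counts of each marker per 100 counts of the pan-leukocyte gene Ptprc in the same rat (log axis), with one point per rat and an open triangle where the marker had 0 counts. Apart from Cd8a, which is highest in MI (26.3 to 63.3), the markers have their highest group median in Sham hearts, and the Cd3d, Cd3e, Cd8a, Nkg7 and Prf1 points of iCarP+/Light+ lie below all MI points.

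Neutrophil genes rose in the same hearts. The 8 listed neutrophil markers summed to 6.36 to 11.4 CPM in Sham, 324 to 628 in the MI rats and 2192 to 6615 in iCarP+/Light+ hearts, with Mpo at 0 in all Sham and all MI rats and Ltf at 0 in all treated rats, and all 6 that were tested rose in both steps, beside 30.2% and 11.6% of all genes. Their part in the lymphocyte values was not tested. Of the markers of developing T cells, Rag2 was at 0 in all Sham and all treated rats, and the list of 6, most of it from Cd1d1, summed to 26.9 to 40.4 CPM in Sham, 17.6 to 23.4 in the MI rats and 10.2 to 18.1 in iCarP+/Light+ hearts. The sum hides opposite directions. Of the 3 that were tested, 2 rose and 1 fell from Sham to MI (median log2 fold change 2.06), beside 30.2% higher and 33.6% lower among all genes. From MI to iCarP+/Light+ 0 rose and 1 fell, beside 11.6% and 2.01% of all genes.

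Other genes of the same lineages were followed in 5 lists. Of the T cell receptor and co-receptor list, 15 of 21 genes were tested, and from Sham to MI 8 rose and 1 (Cd4) fell, beside 30.2% higher and 33.6% lower among all genes, with a median log2 fold change of 0.97. Beside Cd8b, the largest were Ubash3a, a regulator of T cell receptor signalling (4.55, SE 0.75, edgeR adjusted p = 1.59e-04), and Lcp2, the adaptor SLP-76 that myeloid cells also use (2.62, SE 0.25, adjusted p = 1.70e-06). From MI to iCarP+/Light+ 2 of the 15 fell, Cd8b and Icos, a co-stimulatory receptor of activated T cells (-0.85, SE 0.25, adjusted p = 0.0402), and Lcp2 rose (0.91, SE 0.24, adjusted p = 0.0199), with a median of -0.45 and beside 2.01% lower and 11.6% higher among all genes. The call of Icos was lost in 9 of 12 fits with a rat left out, the 3 exceptions being Sham rats 1 and 5 and treated rat 4 (adjusted p up to 0.119), and that of Lcp2 without MI rat 3 or 5 or treated rat 5 (0.68 to 0.89, adjusted p up to 0.102).

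Of the B cell list, 14 of 18 genes were tested, and 7 rose and 2 fell from Sham to MI (median 0.95; 30.2% and 33.6% of all genes), whereas 1 rose and 1 fell from MI to iCarP+/Light+ (median 0.34; 11.6% and 2.01% of all genes). Spib, a transcription factor of B cells and plasmacytoid dendritic cells (3.60, SE 0.32, edgeR adjusted p = 8.32e-07), and Fcrla (3.34, SE 0.32, adjusted p = 1.64e-06) rose from Sham to MI. The 6 plasmacytoid dendritic cell markers, none at 0 in all rats of a group, summed to 98.5 to 115 CPM in Sham, 202 to 241 in the MI rats and 154 to 210 in iCarP+/Light+. Of these 6, 5 rose and 1 fell from Sham to MI. Their part in the B cell list was not tested. Fcer2, the low-affinity IgE receptor CD23, fell from 22.5 ± 5.45 to 0.539 ± 0.232 CPM (-5.37, SE 0.31, adjusted p = 6.03e-08), and stood at 1.56 ± 0.334 CPM in iCarP+/Light+ hearts (1.52 above MI, SE 0.32, adjusted p = 0.00597; not called in limma-voom, at 1.54 and an adjusted p of 0.0671). Blnk, an adaptor below the B cell receptor, fell from MI to iCarP+/Light+ (-0.80, SE 0.21, adjusted p = 0.0219), a call lost without MI rat 1 or treated rat 2 or 4 (adjusted p up to 0.0732).

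Of the cytotoxic and NK cell list, 18 of 24 genes were tested, with 7 higher and 3 lower in MI than in Sham (median 0.34; 30.2% and 33.6% of all genes). Cst7, the cathepsin inhibitor cystatin F of cytotoxic and myeloid cells (3.25, SE 0.26, edgeR adjusted p = 4.11e-07), Ncr3 (2.63, SE 0.32, adjusted p = 1.26e-05), an NK activating receptor, and Cd244 (2.54, SE 0.39, adjusted p = 9.07e-05), a receptor of NK cells and some myeloid cells, had the largest values. Gzmk, another granzyme, rose as well (1.93, SE 0.49, adjusted p = 0.00393). The granzymes Gzma (0.34, adjusted p = 0.626) and Gzmm (0.33, adjusted p = 0.511) of this list were not called. The 3 that fell were Xcl1, a chemokine made by cytotoxic lymphocytes (-2.30, SE 0.47, adjusted p = 8.70e-04), the NK receptor Klrb1c (-1.41, SE 0.37, adjusted p = 0.00464) and Il2rb, a chain of the interleukin-2 and interleukin-15 receptors (-0.86, SE 0.19, adjusted p = 0.00134). With total counts alone, Xcl1 was still called (-1.74), and Klrb1c (-0.85, adjusted p = 0.0616) and Il2rb (-0.29, adjusted p = 0.197) were not. From MI to iCarP+/Light+ 1 rose and 1 fell (median -0.39; 11.6% and 2.01% of all genes): Ncr1, the NK receptor NKp46, rose (2.17, SE 0.54, adjusted p = 0.0159), and Klrk1, the activating receptor NKG2D, fell (-1.36, SE 0.37, adjusted p = 0.0248). The first call was lost without treated rat 5 (1.78, adjusted p = 0.0680), while the second was lost without MI rat 4 (-1.03, adjusted p = 0.0753) or treated rat 1, 4 or 5.

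Of the homing and survival list, 17 of 18 genes were tested, with 9 higher and 4 lower from Sham to MI (median 1.17; 30.2% and 33.6% of all genes) and 3 higher and 1 lower from MI to iCarP+/Light+ (median 0.08; 11.6% and 2.01% of all genes). Il7r, the interleukin-7 receptor, rose in both steps (2.73 and 2.24, edgeR adjusted p = 1.06e-04 and 8.18e-04), and Ltb, lymphotoxin beta, rose from MI to iCarP+/Light+ (2.47, adjusted p = 0.00188). Of 12 lymphocyte-attracting chemokines and cytokines, 2 rose and 4 fell from Sham to MI (median -0.41; 30.2% and 33.6% of all genes) and 0 were called by edgeR from MI to iCarP+/Light+ (median -0.27; 11.6% and 2.01% of all genes), where Cxcl13, Cxcl16 and Ccl5 had an unadjusted p below 0.05, DESeq2 called 1 lower and limma-voom 1 higher. From Sham to MI, Cxcl9, an interferon-induced attractant of activated T cells (-2.75, SE 0.48, adjusted p = 2.38e-04), and Cxcl12 (-1.95, SE 0.26, adjusted p = 2.50e-05) fell, and Cxcl13, an attractant of B cells, rose (2.00, SE 0.58, adjusted p = 0.00825).

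**Figure D5:**
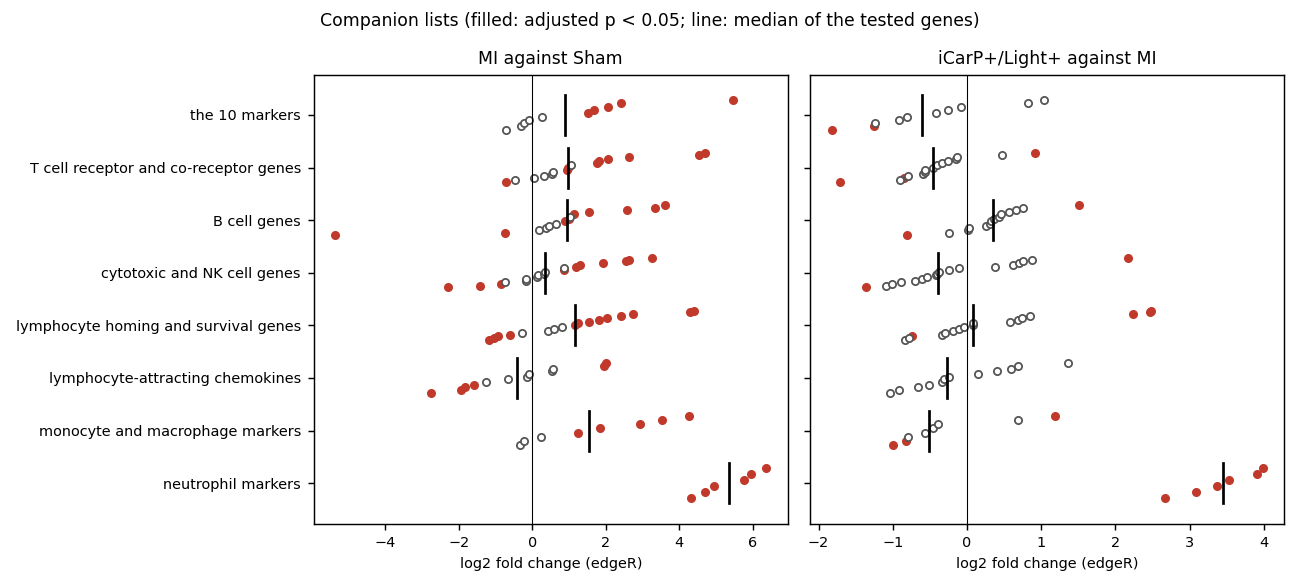
Log2 fold change (x axis) of every tested gene of the 10 markers, of the 5 companion lists and of the monocyte and macrophage and the neutrophil markers (rows), from Sham to MI (left) and from MI to iCarP+/Light+ (right), filled at an edgeR adjusted p below 0.05 and with a line at the median. The medians of the 10 markers are 0.89 and -0.61, while all tested neutrophil markers lie to the right of 0 in both panels.

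The genes whose pattern over the 12 rats was nearest to each marker were found by the root-mean-square difference of centred log2 CPM. For Cd8a, whose own spread was 2.32, the nearest were an unnamed locus (0.52), Nrcam, a cell adhesion molecule (0.54), and Cd8b (0.61). For Nkg7 (spread 0.56) the nearest was Klrd1 (0.18), the NK receptor chain CD94, followed by Fdxr (0.25) and Naxe (0.27). Nearest to Cd3e (spread 0.91) were Ly86 (0.28), St14 (0.29) and Tifab (0.34), and to Cd3g (spread 1.05) Jakmip1 (0.37), Spc25 (0.41) and St14 (0.42). Nearest to Cd3d (spread 0.90) were AC109737.1 (0.31), Gap43 (0.44) and Ctsw (0.48), cathepsin W of cytotoxic lymphocytes, and to Cd2 (spread 0.73) Myrf (0.25), an unnamed locus (0.26) and Abracl (0.30). No CD3 gene was among the 3 nearest of another. The remaining markers had Rnaseh2c, Zfp472 and Zfyve19 (Gzmb), Rnf5, Ctsf and Rmdn3 (Prf1), Aldh1l2, Aff4 and Dmtf1 (Cd79b), and Cd28, Kcnk1 and Arhgap8 (Ms4a1) as their nearest, at 0.21 to 0.49.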

How the data were processed

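Total RNA from the infarct region of 12 rats (4 Sham, 4 MI, 4 iCarP+/Light+) was made into libraries with the NEBNext Ultra RNA kit and sequenced by the authors, who deposited 1 table of raw counts per gene with no normalization. The submitters' processing notes name HISAT2, featureCounts and rn6; versions, the strand setting and the annotation release are not given in the sources used here. Columns were matched to rats by their names, which are the sample titles.

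From these counts, edgeR 4.0.16 (R 4.3.3) was run on all 12 rats with 3 groups: filterByExpr with a minimum count of 10, TMM scaling, a quasi-likelihood F test and Benjamini-Hochberg adjustment over all 15101 genes tested, with a threshold of 0.05. Standard errors were the log2 fold change divided by the square root of F. CPM used TMM-scaled library sizes, and log2 CPM a prior count of 2. No marker was removed by the filter, so the exact permutation test planned for removed markers had no gene to run on. Alternatives were DESeq2 1.42.0, limma-voom (limma 3.58.1), DESeq2 size factors, total counts alone, other filters, counts without mitochondrial genes, a prior count of 0.5 for log2 CPM, only the rats compared, a replicate block, and each rat left out. The fits were tested on simulated data, and figures were drawn with matplotlib 3.10.9.

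The depth of 14064414 to 17136958 counts per rat left Cd3d, Gzmb, Cd79b and Ms4a1 under 60 counts in every rat. Reads carry no molecular identifiers, so a floor of 3 counts covers counting error only. Replicates are separate rats, and no 2 columns agreed within sampling noise (chi-square per gene 14.0 to 111 over 18 pairs within groups).

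The markers and the companion lists were chosen with earlier results of these data known. Named companions were, per list and comparison, up to 3 genes with an adjusted p below 0.05, a mean of at least 1 CPM and the largest change, along with Ptprc. Cd8b, Cd4, Csf1r, Lyz2, Adgre1, C1qa and C1qb beside the Cd8a values were chosen after their values had been seen. So were Gzma, Gzmk, Gzmm, Xcl1, Klrb1c and Il2rb, and the genes named in the count of called genes. Trac, Trbc1, Trbc2, Cd79a, Igkc, Fasl and Klrb1a were not analysed here. Some genes of the lists are counted but not reported here by name. Nearest genes were the 3 with the smallest root-mean-square difference from the marker, after the mean log2 CPM of a gene over the 12 rats had been subtracted. Upstream sequences came from RefSeq (GRCr8), whose coordinates were not mixed with those of rn6.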

Additional observations from a re-analysis of the deposited data

Results flagged for a closer look

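Cd3e in iCarP+/Light+ rat 1 stood apart from the other treated rats. It measured 3.26 CPM, and the other 3 lay between 1.48 and 1.63 CPM, and on the log2 CPM scale, on which the test was run, the gap to the nearest of them made up 0.881 of the range of the group, above the 95% limit of Dixon's test for 4 values. The test was run on 30 groups of rats (10 markers in 3 groups), in which chance flags about 1 in 20, or 1.5 in all. Without this rat the log2 fold change of Cd3e from MI to iCarP+/Light+ was -1.60 (edgeR adjusted p = 0.0123) and that from Sham to iCarP+/Light+ was 0.47 (adjusted p = 0.308). The same rat had the highest Cd2, Cd3g and Cd8a values of its group (9.33, 3.32 and 50.5 CPM) and the lowest Cd79b (1.44 CPM).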

How the results depend on the processing

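Of 256 fold changes of the markers under alternatives other than leaving out a rat, 243 had the same sign and the same call, 5 gained a call, 3 lost one and 5 changed sign. With total counts alone, which moved the median log2 fold change of all genes from -0.06 to 0.52 (Sham to MI), from 0.01 to -0.25 (MI to iCarP+/Light+) and from 0.02 to 0.33 (Sham to iCarP+/Light+), 5 markers in place of 2 were called lower in iCarP+/Light+ than in MI, beside 18.0% in place of 2.01% of all genes, and uncalled values changed sign for Nkg7 (0.26), Prf1 (0.33) and Cd79b (0.50) from Sham to MI and for Gzmb (0.17) from Sham to iCarP+/Light+. In DESeq2, genes called higher were 73.3% of all calls between iCarP+/Light+ and MI, beside 85.2% in edgeR. With at least 10 counts required in every rat, 6 markers were tested and 3 were called higher from Sham to MI, Cd3d and Cd3g not being among those tested. With only the rats compared, 1 marker (Cd8a) was called lower in iCarP+/Light+ than in MI, and Cd79b from Sham to MI was 0.053; the cause was not tested. Same-numbered rats are different animals, and their deviations correlated at -0.150 to 0.0654 over 9 pairs, so the numbers do not pair the rats. With the number as a replicate block, Cd3e lost its call between MI and iCarP+/Light+ (-1.22, adjusted p = 0.160), which left 1 marker (Cd8a) called lower. Cd3d lost its call from Sham to MI (1.48, adjusted p = 0.0646), which left 4 markers called higher. The calls of Blnk, Icos, Klrk1, Lcp2, Ncr1, Ptprc, Adgre1, C1qa and C1qb between MI and iCarP+/Light+ were lost as well (adjusted p = 0.0662 to 0.179). That of Icos was also lost with no filter on low counts (-0.87, adjusted p = 0.0676).

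With each rat left out in turn, 5 markers were called higher and none lower from Sham to MI in all 12 fits. From MI to iCarP+/Light+ 1 to 3 were called lower and 0 to 1 higher, and from Sham to iCarP+/Light+ 3 to 4 higher and 1 to 2 lower. Of the 360 fold changes 332 had the same sign and call, and 9 changed sign, none of them a call: Prf1 (-0.43 to 0.0068) and Cd79b (-0.28 to 0.11) from Sham to MI, Prf1 (-0.28 to 0.021) from MI to iCarP+/Light+, and Gzmb (-0.42 to 0.35) and Ms4a1 (-0.22 to 0.37) from Sham to iCarP+/Light+. Depth limits Cd3d, Gzmb, Cd79b and Ms4a1 most, with under 60 counts in every rat.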
